A study of Mus musculus with 15 samples.

Results

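The genes described here are 31 members of mitochondrial and peroxisomal fatty acid oxidation, chosen by name: activating and shuttle proteins, acyl-CoA dehydrogenases, the later enzymes of the cycle, enzymes for double bonds, peroxisomal proteins, the electron transfer flavoprotein and the coactivator Ppargc1a. They are 31 of the 57132 genes in the 3 deposited tables, and all 31 passed the filter on low values (signal of at least 0.5 in 3 libraries) in every comparison. RNA was sequenced from mouse podocytes, epithelial cells that wrap the filtering capillaries of the kidney, in 15 libraries of 5 groups, with 3 libraries each. The treatment tables held Col4a3-/- podocytes given ApoM (apolipoprotein M, a plasma carrier of sphingosine-1-phosphate) for 24 h, Col4a3-/- podocytes given CYM50358 (which blocks S1PR4, a receptor for that lipid) for 24 h, and Col4a3-/- podocytes given vehicle. The remaining table held a separate set of Col4a3-/- podocytes given vehicle and Col4a3+/+ (wild-type) podocytes given vehicle. All treated cells and their vehicle controls were therefore Col4a3-/-, and Col4a3 encodes a chain of basement membrane collagen whose loss causes Alport syndrome. The labels of the genotype libraries call the cells a cell line, with no word on the number of clones. Whether replicate libraries started from separate cultures is not stated either, so p-values here speak only to the spread between libraries.

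Fatty acids are joined to coenzyme A by acyl-CoA synthetases, carried into mitochondria as carnitine esters by the carnitine shuttle, and shortened there by repeated rounds of dehydrogenation, hydration, a further dehydrogenation and thiolytic cleavage. Electrons from the first step pass to the respiratory chain through the electron transfer flavoprotein, and peroxisomes run a parallel cycle that starts with an oxidase and handles very long and branched chains. Tubule epithelium of the kidney is known to rely on this pathway, while podocytes are known to draw more on glycolysis.

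Values are given as signal, the authors' normalised level, which behaves as CPM with a further scaling factor. Fold changes are differences of log2(signal + 1), a scale on which low genes appear to change less than they do, and a gene was called at an adjusted p under 0.05 (limma, Benjamini-Hochberg over all genes tested). Libraries held 45417221 to 83166742 reads. Col4a3, the check of the labels, averaged 68.3 ± 11.7 in knockout and 1085 ± 168 in wild-type cells (SD, n = 3 each; log2 fold change -3.97), and no label gives the deleted part of the gene. Of 14 podocyte markers, 10 reached the filter in the genotype groups and 9 in the treatment groups. The transcription factor Tcf21 was at 0 reads in all 15 libraries and Nphs1 (nephrin) had 0 to 36 reads, so these defining markers of the labelled cell type were absent or nearly so. The 3 members with the fewest reads were Ehhadh (61 to 217 reads per library), Etfb (35 to 68) and Ppargc1a (31 to 148). Within a group, the median coefficient of variation over the members was 5.15% to 6.72%.

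With CYM50358, 3 of the 31 members fell and none rose: Slc25a20, Acot2 and Acaa2 fell by 0.37 to 0.52 on the log2 scale, with no overlap between CYM50358 and vehicle libraries. Slc25a20 encodes the carrier that exchanges acylcarnitine for carnitine across the inner mitochondrial membrane. Acot2 encodes a mitochondrial thioesterase that frees fatty acids from coenzyme A, and Acaa2 encodes the mitochondrial thiolase that splits acetyl-CoA from the chain. Over all 13877 genes tested, 2.59% were called in this comparison, with 1.34% higher and 1.25% lower, and in the median the log2 fold change was -0.04 for members and 0.00 for all genes. As these are bulk libraries, fewer cells of a type and less RNA per cell cannot be told apart.

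Slc25a20 (ENSMUSG00000032602.7, chromosome 9, 108539287 to 108561840, mm39) had a signal of 24.6, 27.9 and 30.1 in the CYM50358 libraries, against 37.9, 37.8 and 35.2 in the vehicle libraries. Every CYM50358 library lay below every vehicle library. The means were 27.5 ± 2.77 and 37.0 ± 1.50 (SD, n = 3 each; log2 fold change -0.42, SE 0.09, limma adjusted p = 0.023). Acot2 (ENSMUSG00000021226.8, chromosome 12, 84034635 to 84040647, mm39) had a signal of 14.0, 15.7 and 17.5 in the CYM50358 libraries, against 24.3, 24.1 and 20.7 in the vehicle libraries. The groups again did not overlap, with CYM50358 replicate 1 the lowest of both genes (log2 fold change of Acot2 -0.52, SE 0.12, limma adjusted p = 0.021). In the reference transcripts 27.7% of the 50-base stretches of Acot2 also occur in other genes, and 24.5% in its neighbour Acot1, so reads of both could be mixed. Acot1 itself averaged 7.92 ± 1.59 in CYM50358 and 12.2 ± 1.94 in vehicle cells, without overlap (log2 fold change -0.57), and was not called with limma (adjusted p = 0.067) or edgeR (0.072) but was with DESeq2 (0.018). Acaa2 (ENSMUSG00000036880.11, chromosome 18, 74912268 to 74939279, mm39) had a signal of 38.8, 35.8 and 41.0 in the CYM50358 libraries, against 49.7, 55.1 and 46.1 in the vehicle libraries. Its highest CYM50358 library stayed below its lowest vehicle library (log2 fold change -0.37, SE 0.09, limma adjusted p = 0.026).

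These 3 calls rest on all libraries together. Slc25a20 was no longer called without CYM50358 replicate 1 (adjusted p = 0.061), CYM50358 replicate 2 (0.090), vehicle replicate 1 (0.086) or vehicle replicate 2 (0.092). Acot2 was no longer called without CYM50358 replicate 1 (0.052), CYM50358 replicate 2 (0.089), vehicle replicate 1 (0.089) or vehicle replicate 2 (0.091). Acaa2 was no longer called without CYM50358 replicate 2 (0.15), vehicle replicate 1 (0.073) or vehicle replicate 2 (0.14). The direction of the 3 genes was the same in each of these fits, and edgeR (1.9% of genes called) and DESeq2 (5.5%) called the same 3 and no other member. The authors' deposited table, with 8.36% of its 11465 genes called, also called these 3 alone. With no filter on low values limma called 1 of 24771 genes in this comparison and none of the 3, with adjusted p values of 0.22 for Slc25a20, 0.22 for Acot2 and 0.24 for Acaa2 and the same fold changes.

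The promoter windows of Slc25a20 and Acot2 are shown because both genes fell with CYM50358. They run from 250 bases before to 50 bases after the transcription start, from RefSeq on build GRCm38.p6, a different build from that of the deposited locations: chr9:108661886-108662185 for Slc25a20 and chr12:83987611-83987910 for Acot2, both on the plus strand and written 5′ to 3′. Capitals mark GC boxes (GGGCGG) and CCAAT boxes (CCAAT) on either strand.
Slc25a20: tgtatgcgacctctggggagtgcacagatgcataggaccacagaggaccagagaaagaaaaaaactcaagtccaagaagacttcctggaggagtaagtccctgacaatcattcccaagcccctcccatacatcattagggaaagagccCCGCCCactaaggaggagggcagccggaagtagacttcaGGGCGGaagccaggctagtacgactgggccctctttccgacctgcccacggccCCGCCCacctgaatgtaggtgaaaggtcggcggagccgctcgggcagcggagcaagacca
Acot2: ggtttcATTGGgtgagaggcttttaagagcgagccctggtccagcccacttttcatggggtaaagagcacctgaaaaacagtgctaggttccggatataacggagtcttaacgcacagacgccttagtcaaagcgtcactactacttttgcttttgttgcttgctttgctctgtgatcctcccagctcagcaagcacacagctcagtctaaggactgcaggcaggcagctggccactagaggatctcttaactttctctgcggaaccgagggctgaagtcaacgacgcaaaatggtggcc
The Slc25a20 window held 3 GC boxes and no CCAAT box, and the Acot2 window held 1 CCAAT box and no GC box, with a GC content of 58% and 51.3%.

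**Figure D1:**
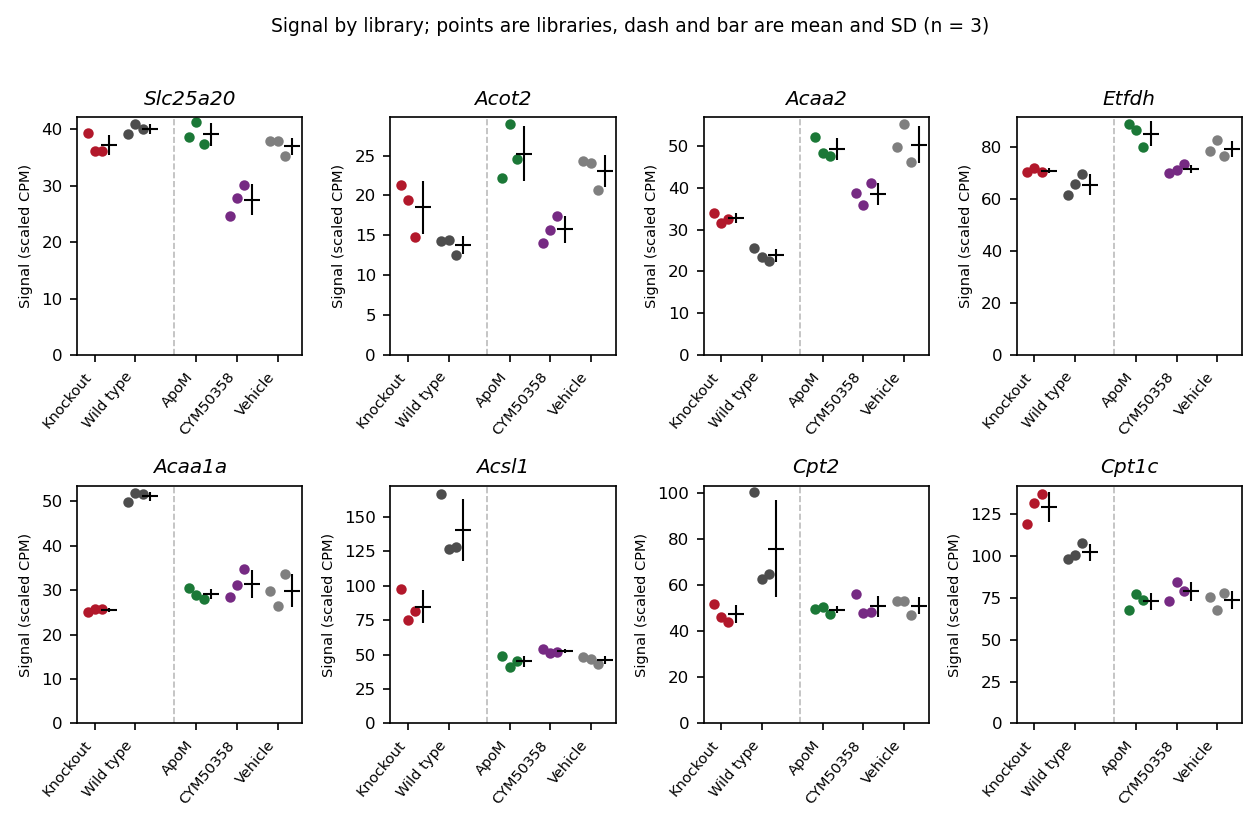
Signal of 8 members by library, in knockout and wild-type cells (left of the dashed line) and in ApoM, CYM50358 and vehicle knockout cells (right of it), where points are libraries and the dash with its bar is the mean with SD (n = 3). Both sides were normalised separately. Slc25a20, Acot2 and Acaa2 lie lower in all CYM50358 libraries than in all ApoM and vehicle libraries, and Acaa1a lies at 25.0 to 25.8 in knockout and 49.9 to 51.7 in wild-type libraries.

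The other 28 members did not pass the test with CYM50358, and 6 of them had an unadjusted p under 0.05 (9 members in all, beside 16.6% of all genes) without passing the adjustment. In the activation and shuttle group, Acsl1, which activates long-chain fatty acids, had a log2 fold change of 0.18 (SE 0.08, adjusted p = 0.23), and its 3 CYM50358 libraries (51.5 to 54.0) lay above its vehicle libraries (43.2 to 48.3). Crat, the carnitine acetyltransferase, likewise lay at 35.0 to 37.2 with CYM50358 and 30.4 to 32.8 with vehicle (log2 fold change 0.19, adjusted p = 0.26). Cpt2, which returns the acyl group to coenzyme A inside mitochondria, and Cpt1c, a carnitine palmitoyltransferase relative known from neurons, had log2 fold changes of -0.01 and 0.10. So within the shuttle the carrier fell while its partner enzyme Cpt2 had overlapping libraries in both groups (48.2 to 56.2 with CYM50358 and 47.1 to 53.4 with vehicle).

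None of the 6 acyl-CoA dehydrogenases was called with CYM50358. Acadl, the long-chain enzyme, averaged 80.6 ± 8.58 in CYM50358 and 90.8 ± 2.97 in vehicle cells (log2 fold change -0.17, adjusted p = 0.24), with CYM50358 replicate 3 (90.4) inside the vehicle range. Acadm (medium-chain, 0.12), Acads (short-chain, 0.12), Acadvl (very long-chain, -0.11), Acad9 (also an assembly factor of respiratory complex I, -0.07) and Acad11 (0.16) also had overlapping groups. Hadha and Hadhb, the subunits of the mitochondrial trifunctional protein, had log2 fold changes of -0.04 and 0.05, the short-chain enzymes Hadh and Echs1 had 0.03 and -0.03, and none of the 4 was called. Thus Acaa2 was the one enzyme of the later mitochondrial steps that passed the test.

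All 3 parts of the electron transfer route lay lower in every CYM50358 library than in every vehicle library without passing the test. Etfdh, which hands electrons on to ubiquinone, had a signal of 69.9, 71.2 and 73.2 with CYM50358, against 78.4, 82.6 and 76.5 with vehicle (log2 fold change -0.15, adjusted p = 0.28). Etfa and Etfb, the subunits of the flavoprotein, had log2 fold changes of -0.13 and -0.19 (adjusted p = 0.40 and 0.70). The level of Etfb is uncertain, at 35 to 68 reads per library and with 57.7% of its 50-base stretches also in other genes. In all, libraries of both groups did not overlap for 13 members, 4 above and 9 below, beside 20.9% of all genes tested. Peroxisomal members were not called: Ehhadh, the bifunctional enzyme, had -0.31, Acox3, an oxidase of branched chains, had 0.18, the peroxisomal reductase Decr2 had 0.24, and Abcd3, Hsd17b4, Acaa1a and Crot lay between -0.10 and 0.07. Of the double bond enzymes of mitochondria, Eci1 had a log2 fold change of 0.05, Eci2 of -0.12 and Decr1 of -0.13. Ppargc1a, a coactivator of mitochondrial genes, varied more between CYM50358 libraries (1.76, 1.77 and 0.36) than the groups differed.

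**Figure D2:**
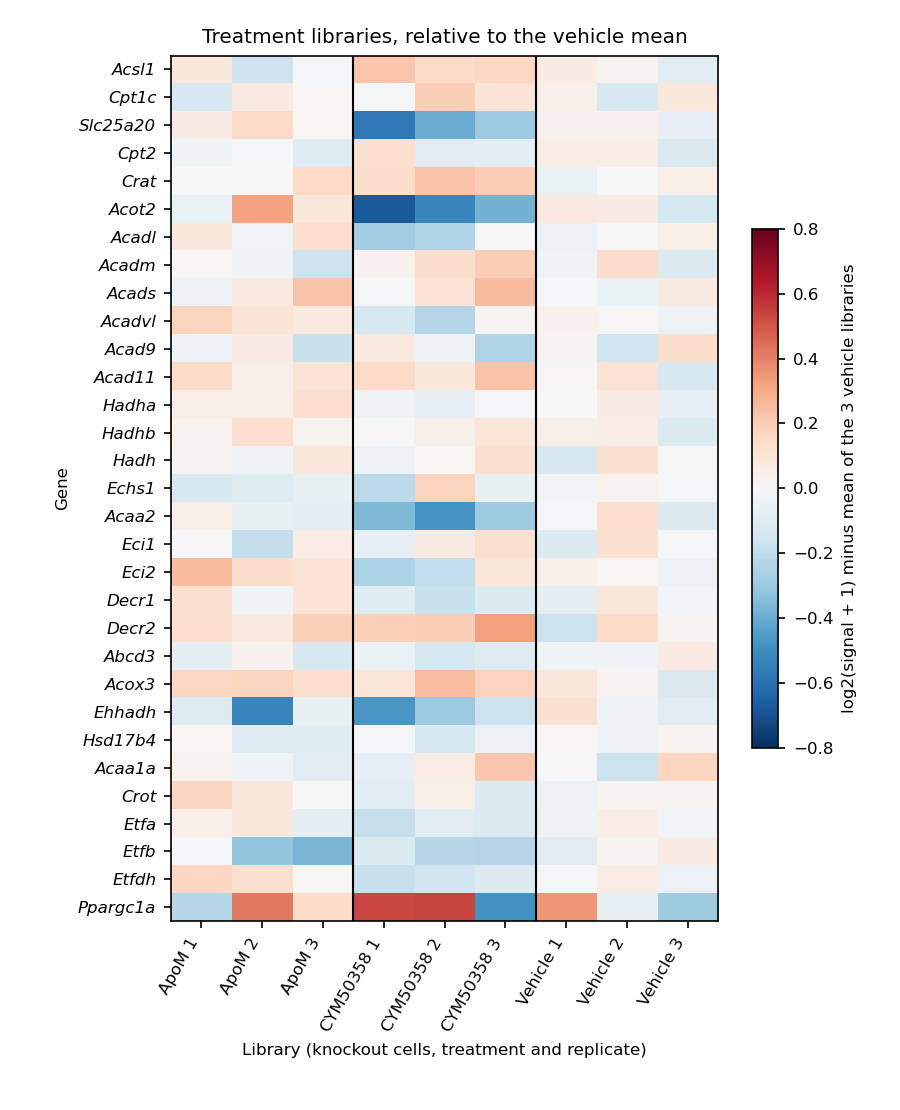
Difference of log2(signal + 1) of each member (rows) in each ApoM, CYM50358 and vehicle library (columns) from the mean of the 3 vehicle libraries, with red above and blue below that mean. The Slc25a20, Acot2 and Acaa2 cells are blue in all 3 CYM50358 libraries, and Ppargc1a, at 31 to 148 reads, varies in both directions within groups.

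Genes of the same pathway outside the 31 also changed with CYM50358. Of 38 other fatty acid oxidation genes, 30 were tested, of which 1 rose and 2 fell. Cpt1a, the gate of the carnitine shuttle at the outer mitochondrial membrane, had a signal of 194.9, 192.8 and 201.3 in CYM50358 libraries, against 283.9, 280.0 and 298.9 in vehicle libraries (log2 fold change -0.55, SE 0.06, limma adjusted p = 3.1e-05). Ucp2, a carrier of the inner mitochondrial membrane, fell too (51.4 ± 3.67 with CYM50358 and 69.8 ± 2.85 with vehicle, log2 fold change -0.43), and Acsl3, an acyl-CoA synthetase of the endoplasmic reticulum and lipid droplets, rose (28.5 ± 3.31 with CYM50358 and 19.3 ± 1.50 with vehicle, log2 fold change 0.54), a call lost without CYM50358 replicate 2 (Acsl3 adjusted p = 0.099). The Cpt1a and Ucp2 calls held without any 1 library, but with no filter on low values Cpt1a had an adjusted p of 0.062, Ucp2 of 0.16 and Acsl3 of 0.21.

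Among 20 tested regulators of the pathway, 1 rose and 1 fell with CYM50358. Pdk4, the kinase that shuts off pyruvate dehydrogenase, had a signal of 50.1, 59.7 and 43.1 in CYM50358 libraries, against 92.4, 90.8 and 130.4 in vehicle libraries (log2 fold change -1.01, SE 0.12, limma adjusted p = 8.8e-05). Lpin1, a phosphatidate phosphatase, rose (log2 fold change 0.29), a call lost without CYM50358 replicate 2 (Lpin1 adjusted p = 0.11), vehicle replicate 2 (0.11) or vehicle replicate 3 (0.067). Ppard, the nuclear receptor PPAR delta, averaged 54.2 ± 2.66 with CYM50358 and 47.4 ± 2.30 with vehicle and was not called (adjusted p = 0.20), while Ppara had 0 to 32 reads in any library. Among the ketone body genes, Oxct1, which starts ketone body use, rose (99.0 ± 6.38 with CYM50358 and 75.2 ± 4.89 with vehicle, log2 fold change 0.39). With no filter, Pdk4 (0.18), Lpin1 (0.17) and Oxct1 (0.19) were not called either. None of the 23 nuclear genes for mitochondrial mass or 20 peroxisome biogenesis genes was called with limma, edgeR or DESeq2, at an unadjusted limma p under 0.05 for 1 and 0 of them. Of 11 tested genes of mitochondrial DNA, limma and edgeR called 0 (5 at an unadjusted limma p under 0.05), while DESeq2 called 4 higher: mt-Nd2, mt-Nd4, mt-Nd5 and mt-Cytb, with log2 fold changes of 0.21 to 0.25. All 11 had a log2 fold change above 0, and 6 lay above vehicle in every CYM50358 library.

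**Figure D3:**
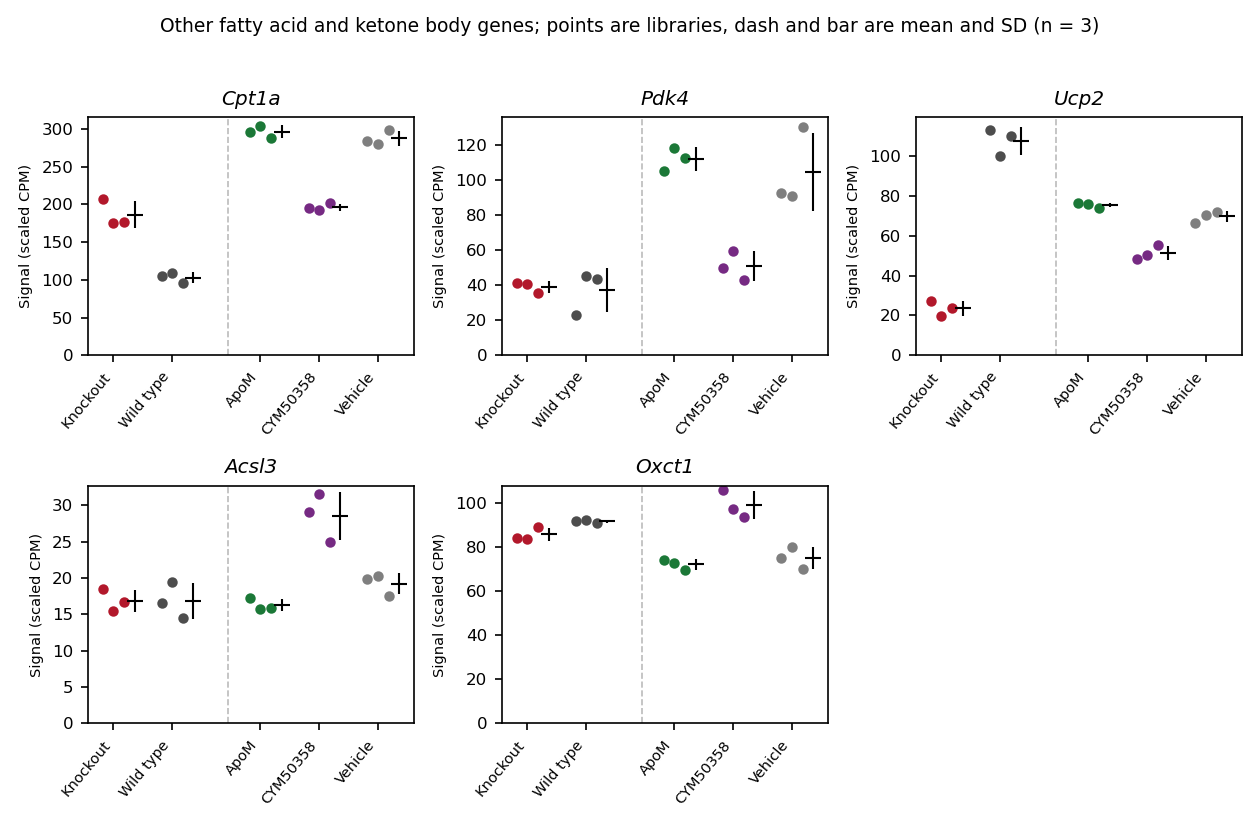
Signal of 5 fatty acid and ketone body genes outside the 31 by library, in the same layout, with points for libraries and a dash with its bar for the mean and SD (n = 3). Cpt1a, Pdk4 and Ucp2 lie lower, and Acsl3 and Oxct1 higher, in all CYM50358 libraries than in all ApoM and vehicle libraries.

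Several marker lists had lower summed levels with CYM50358. Of 12 proximal tubule markers, 6 were tested and 1, the endocytic receptor Lrp2, was lower (log2 fold change -0.37). Their summed signal was 148.0 to 176.6 in CYM50358 libraries and 195.5 to 226.1 in vehicle libraries, almost all of it from Lrp2, with the transporter Slc34a1 at 0 reads in all CYM50358 libraries and Hnf4a at 0 in all vehicle libraries. The mesangial and fibroblast markers summed to 6362 to 6895 in CYM50358 and 7113 to 8398 in vehicle libraries, most of it from the smooth muscle actin gene Acta2 (log2 fold change -0.27). Limma and edgeR called 0 of the 6 tested, 3 had an unadjusted limma p under 0.05, and DESeq2 called Acta2 lower (adjusted p = 0.0039). Cell division genes summed to 45.0 to 47.2 in CYM50358 and 49.7 to 60.9 in vehicle libraries, where limma and edgeR called 0 of 10 tested, 2 had an unadjusted limma p under 0.05, and DESeq2 called Cenpe lower (log2 fold change -0.46, adjusted p = 0.027). Reads of mitochondrial DNA genes made up 3.30% to 3.46% of CYM50358 and 2.60% to 3.18% of vehicle libraries. The part of these in the results on the members was not tested.

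No member passed the test with ApoM. None of the 31 was called with limma or edgeR, which each called 0.0434% of 13839 genes, or with DESeq2, which called 0.137% and gave no adjusted p for Etfb, Ehhadh and Ppargc1a. An unadjusted p under 0.05 was found for 3 members, beside 5.46% of all genes. Those 3 were Acadvl (log2 fold change 0.12), Eci2 (0.17) and Acox3 (0.16), each with all ApoM libraries above all vehicle libraries. Eci2, an isomerase of both mitochondria and peroxisomes, had a signal of 65.8, 60.8 and 59.6 with ApoM, against 56.6, 55.4 and 53.4 with vehicle (SE 0.07, limma adjusted p = 0.81). The groups did not overlap for 4 members, 3 above and, for Echs1, 1 below, where 10.7% of all genes did not overlap. Log2 fold changes of the members ran between -0.23 and 0.17 with a median of 0.05, against a median of 0.00 over all genes.

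The members that fell with CYM50358 were not called with ApoM, measured against the same 3 vehicle libraries. Slc25a20 had a signal of 38.6, 41.2 and 37.3 with ApoM and 35.2 to 37.9 with vehicle (log2 fold change 0.08, adjusted p = 0.97). Acot2 had 22.2, 28.9 and 24.5 with ApoM and 20.7 to 24.3 with vehicle (log2 fold change 0.12), and Acaa2 had 52.1, 48.2 and 47.4 with ApoM and 46.1 to 55.1 with vehicle (log2 fold change -0.03). In each of the 3 the groups overlapped. None of the lists of other fatty acid oxidation genes, regulators, ketone body genes, peroxisome genes or mitochondrial genes had a called gene with ApoM. Cpt1a averaged 296.4 ± 8.58 with ApoM and 287.6 ± 9.97 with vehicle, and Pdk4 averaged 112.1 ± 6.76 with ApoM and 104.5 ± 22.4 with vehicle.

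Set directly against each other, the treatments differed for 4 members, all higher with ApoM than with CYM50358, beside 2.59% of 13878 genes tested (1.22% higher and 1.37% lower). This comparison uses the same treated libraries as those above. Acot2 averaged 25.2 ± 3.44 with ApoM and 15.7 ± 1.70 with CYM50358 (n = 3 each; log2 fold change 0.64, SE 0.11, limma adjusted p = 0.0024), and Slc25a20 averaged 39.1 ± 1.98 with ApoM and 27.5 ± 2.77 with CYM50358 (log2 fold change 0.49, SE 0.09, limma adjusted p = 0.0030). Both calls held with each library left out in turn. Acaa2 (49.2 ± 2.54 with ApoM and 38.5 ± 2.59 with CYM50358, log2 fold change 0.35, limma adjusted p = 0.020) was not called without ApoM replicate 1 (Acaa2 adjusted p = 0.16), ApoM replicate 2 (0.070) or CYM50358 replicate 2 (0.11). The fourth was Etfdh (ENSMUSG00000027809.15, chromosome 3, 79511095 to 79536807, mm39).

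Etfdh had a signal of 88.9, 86.5 and 79.7 with ApoM, against 69.9, 71.2 and 73.2 with CYM50358 (log2 fold change 0.25, SE 0.07, limma adjusted p = 0.046), with the vehicle libraries (76.5 to 82.6) between them on average. DESeq2 added Acadvl to the 4 (4.6% of genes called), while edgeR (2.2%) did not call Etfdh (Etfdh adjusted p = 0.063). With no filter on low values none of the 4 was called (Acot2 adjusted p = 0.20, Slc25a20 0.17, Acaa2 0.20 and Etfdh 0.23). The Etfdh call was lost without ApoM replicate 1 (0.27), ApoM replicate 2 (0.22), CYM50358 replicate 1 (0.076) or CYM50358 replicate 2 (0.14). Fitted with the replicate number as a block, the comparison called 8.46% of genes, with 7 members higher and 1 lower: Acadvl (log2 fold change 0.23, adjusted p = 0.0053), Acadl (0.24, 0.0057) and Eci2 (0.29, 0.015) joined the 4 higher ones, and Acsl1 was lower (-0.21, 0.046). Without CYM50358 replicate 3 the number higher was also 7, and it was 2 without ApoM replicate 1, ApoM replicate 2 or CYM50358 replicate 2. Groups did not overlap for 12 members, 9 above and 3 below, beside 19.5% of all genes.

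Genes outside the 31 differed between the treatments too. Of 30 tested other fatty acid oxidation genes, 3 were higher with ApoM and 1 was lower: Cpt1a (log2 fold change 0.59), Ucp2 (0.55) and Acot1 (0.64) were higher and Acsl3 (-0.77) was lower. Acot1, the cytosolic neighbour and near copy of Acot2, averaged 12.9 ± 2.34 with ApoM and 7.92 ± 1.59 with CYM50358, a call lost without ApoM replicate 1 (Acot1 adjusted p = 0.22), ApoM replicate 3 (0.058) or CYM50358 replicate 2 (0.14). Pdk4 (1.13) was higher and Oxct1 (-0.45) was lower with ApoM. With no filter on low values Cpt1a alone of these genes was called (Cpt1a adjusted p = 0.021). The tubule marker Lrp2 (0.34), the cell division gene Cenpe (0.56) and Col4a3 itself (22.5 ± 0.79 with ApoM and 15.5 ± 1.92 with CYM50358, log2 fold change 0.51) were higher with ApoM too, and their part in these results was not tested.

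Between the genotypes, 7 of the 31 members were higher and 9 lower in knockout than in wild-type cells, and 15 were not called. The 51.6% of members called stood beside 44.7% of the 14313 genes tested (22.6% higher and 22% lower), so a change in a member was about as common as in any gene. In the median the log2 fold change was 0.02 for members and 0.00 for all genes. The genes that fell furthest were Acaa1a, Acsl1, Cpt2 and Ehhadh, and those that rose furthest were Acaa2, Decr2, Acot2 and Cpt1c, so the members did not move one way. Groups did not overlap for 21 members, 11 above and 10 below, beside 55.8% of all genes. With edgeR (44.3% of genes called) 8 members were higher and 9 lower, and with DESeq2 (45.7%) 6 were higher and 9 lower.

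**Figure D4:**
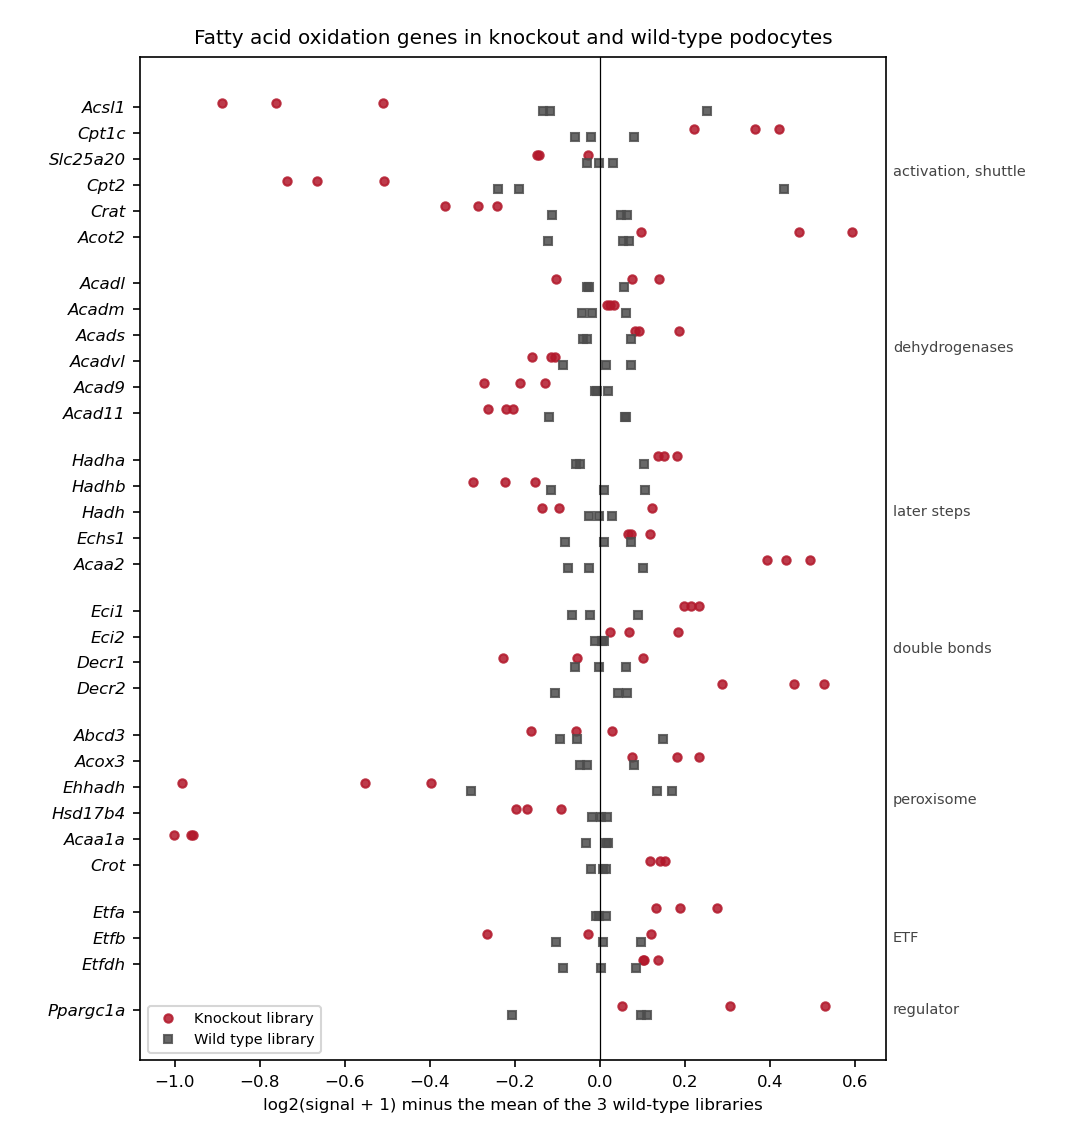
Log2(signal + 1) of each member in each knockout (red circles) and wild-type (grey squares) library, minus the mean of the 3 wild-type libraries, grouped by role. By the mean of the 3 knockout libraries, Acaa1a, Acsl1, Cpt2 and Ehhadh lie furthest to the left and Acaa2, Decr2, Acot2 and Cpt1c furthest to the right. Single libraries can break this order, as knockout replicate 1 of Ppargc1a lies to the right of every Cpt1c library. Wild-type replicate 1 stands apart from the other wild-type libraries for Acsl1 and Cpt2.

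Of the 6 members grouped under activation and shuttle, 2 rose and 3 fell. Those that rose were the thioesterase Acot2 and Cpt1c, the relative known from neurons. Those that fell were the synthetase Acsl1, Cpt2 and Crat. Acsl1 (ENSMUSG00000018796.14, chromosome 8, 46924074 to 46989088, mm39) had a signal of 97.8, 74.9 and 81.9 in knockout libraries, against 166.4, 127.1 and 128.5 in wild-type libraries. No library overlapped, and the log2 fold change was -0.72 (SE 0.12, limma adjusted p = 0.0013) with all libraries and -0.59 without wild-type replicate 1, which stood apart. Cpt2 (ENSMUSG00000028607.17, chromosome 4, 107761178 to 107780807, mm39) had a signal of 51.9, 46.5 and 44.2 in knockout libraries, against 100.5, 62.7 and 64.9 in wild-type libraries. It fell by 0.64 on the log2 scale (SE 0.16, limma adjusted p = 0.0097) and by 0.42 without the high wild-type replicate 1, and stayed called.

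Crat fell to 24.5 ± 1.09 in knockout cells, against 30.3 ± 2.10 in wild-type cells (n = 3 each; log2 fold change -0.30, SE 0.07, limma adjusted p = 0.010). Cpt1c had a signal of 119.3, 131.8 and 137.0 in knockout libraries, against 98.1, 100.8 and 108.1 in wild-type libraries, and rose by 0.33 on the log2 scale (SE 0.07, limma adjusted p = 0.0030). Acot2 rose as well (18.5 ± 3.33 in knockout and 13.8 ± 1.07 in wild-type cells, log2 fold change 0.39), a call lost without knockout replicate 1 (Acot2 adjusted p = 0.13), knockout replicate 2 (0.11), wild-type replicate 2 (0.057) or wild-type replicate 3 (0.11). Slc25a20, which fell with CYM50358, was not called (37.2 ± 1.80 in knockout and 40.1 ± 0.87 in wild-type cells, log2 fold change -0.11, adjusted p = 0.18).

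Among the 6 dehydrogenases 2 fell and none rose. Acad11 averaged 69.6 ± 1.47 in knockout and 81.9 ± 5.80 in wild-type cells (log2 fold change -0.23, limma adjusted p = 0.015), and Acad9 averaged 24.1 ± 1.25 in knockout and 27.7 ± 0.34 in wild-type cells (log2 fold change -0.20, limma adjusted p = 0.039). The Acad11 call was lost without knockout replicate 2 (0.055), wild-type replicate 2 (0.059) or wild-type replicate 3 (0.059), and the Acad9 call without knockout replicate 1 (0.082), knockout replicate 3 (0.13), wild-type replicate 2 (0.11) or wild-type replicate 3 (0.084). Acadl (0.04), Acadm (0.02), Acads (0.12) and Acadvl (-0.13) were not called. Acadvl lay at 121.3 to 126.1 in knockout libraries, just below the 127.7 to 142.8 of wild-type libraries.

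Of the 5 later mitochondrial enzymes, Acaa2 rose and Hadhb fell. Acaa2 had a signal of 33.9, 31.5 and 32.6 in knockout libraries, against 25.6, 23.3 and 22.5 in wild-type libraries. The groups stood well apart, with a log2 fold change of 0.44 (SE 0.07, limma adjusted p = 0.0010), and the call held with each library left out. Hadhb averaged 59.2 ± 3.04 in knockout and 69.4 ± 5.34 in wild-type cells (log2 fold change -0.22, limma adjusted p = 0.027), a call lost without knockout replicate 1 (Hadhb adjusted p = 0.067), knockout replicate 3 (0.10), wild-type replicate 2 (0.10) or wild-type replicate 3 (0.071).

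Hadha and Hadhb code for the alpha and beta subunits of a single protein complex, and their values ran in opposite directions. Hadha averaged 148.8 ± 2.42 in knockout and 133.6 ± 8.55 in wild-type cells (log2 fold change 0.16) and just missed the test with limma (adjusted p = 0.051), while edgeR (adjusted p = 0.047) and the fit with the replicate number as a block (0.028) called it. In the RefSeq annotation (GRCm38.p6) their transcription starts lie 273 bases apart on chromosome 5, on opposite strands, and their 300-base promoter windows share 228 bases. Of the 50-base stretches of Hadhb transcripts 57.5% also occur in other genes, mostly Gm13910, so part of its reads cannot be placed for certain. The window of Hadhb, chr5:30155003-30155302 on the plus strand, is shown because it is largely also that of Hadha, with capitals on its 4 GC boxes.
Hadhb: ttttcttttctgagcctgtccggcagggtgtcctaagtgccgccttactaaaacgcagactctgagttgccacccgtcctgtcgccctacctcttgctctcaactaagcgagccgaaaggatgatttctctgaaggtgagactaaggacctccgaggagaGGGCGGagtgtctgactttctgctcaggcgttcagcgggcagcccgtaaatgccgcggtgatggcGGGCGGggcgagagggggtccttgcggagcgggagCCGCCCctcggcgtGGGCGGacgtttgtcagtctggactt

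Double bond enzymes showed 2 rises and no fall. The peroxisomal reductase Decr2 had a signal of 28.7, 30.2 and 25.4 in knockout libraries, against 19.1, 21.3 and 21.6 in wild-type libraries (log2 fold change 0.42, SE 0.09, limma adjusted p = 0.0035), and its call held with each library left out. Eci1, the mitochondrial isomerase, averaged 20.4 ± 0.26 in knockout and 17.5 ± 1.04 in wild-type cells (log2 fold change 0.22, limma adjusted p = 0.041), a call lost without any library other than wild-type replicate 2, at adjusted p values of 0.070 to 0.13. Eci2 (0.09) and Decr1 (-0.06) were not called.

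The peroxisomal group held the strongest fall. Acaa1a (ENSMUSG00000036138.17, chromosome 9, 119168742 to 119179365, mm39), the peroxisomal thiolase, had a signal of 25.0, 25.8 and 25.7 in knockout libraries, against 49.9, 51.7 and 51.6 in wild-type libraries. The groups stood far apart, with little spread in either (log2 fold change -0.97, SE 0.06, limma adjusted p = 2.0e-06). Of its 50-base stretches 26.7% occur in the neighbouring copy Acaa1b, which averaged 4.01 ± 1.15 in knockout and 2.34 ± 0.15 in wild-type cells. By location, 16.3% of its length overlaps Myd88, which had a signal of 10.5 to 27.1 across all libraries. The part of this overlap in the level of Acaa1a was not tested. The promoter window of Acaa1a, chr9:119341044-119341343 on the plus strand (RefSeq, GRCm38.p6), is shown as that of the member with the widest genotype difference, and capitals mark its 4 CCAAT boxes and 3 GC boxes.
Acaa1a: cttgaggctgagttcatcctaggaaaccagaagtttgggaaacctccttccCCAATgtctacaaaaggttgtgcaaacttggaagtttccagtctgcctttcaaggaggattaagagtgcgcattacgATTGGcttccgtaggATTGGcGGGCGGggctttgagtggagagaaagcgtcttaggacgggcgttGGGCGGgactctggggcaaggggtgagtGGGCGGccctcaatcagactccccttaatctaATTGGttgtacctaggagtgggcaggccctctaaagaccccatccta

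Ehhadh, which carries out the middle steps of the peroxisomal cycle, had a signal of 1.35, 2.17 and 2.53 in knockout libraries, against 4.22, 4.09 and 2.76 in wild-type libraries. Wild-type replicate 3 came near the knockout libraries but did not overlap them (log2 fold change -0.64, SE 0.18, limma adjusted p = 0.018), and the call was lost without knockout replicate 1 (Ehhadh adjusted p = 0.062) or wild-type replicate 2 (0.063). Hsd17b4, the other bifunctional enzyme, averaged 103.3 ± 3.99 in knockout and 115.0 ± 1.43 in wild-type cells (log2 fold change -0.15, limma adjusted p = 0.032), a call lost without knockout replicate 2 (Hsd17b4 adjusted p = 0.11), knockout replicate 3 (0.097), wild-type replicate 2 (0.083) or wild-type replicate 3 (0.068). Crot, the octanoyltransferase that readies shortened chains for export to mitochondria, rose by 0.14 (limma adjusted p = 0.049), a call lost without any 1 library (Crot adjusted p = 0.053 to 0.14), with the replicate block (0.056) and with DESeq2 (0.068). With the median of each chromosome subtracted, Crot had a log2 fold change of -0.032. The transporter Abcd3 (-0.06) and Acox3 (0.16, limma adjusted p = 0.058) were not called, although Acox3 was called with the replicate block (0.027).

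Etfa averaged 53.6 ± 2.76 in knockout and 46.6 ± 0.41 in wild-type cells (log2 fold change 0.20, SE 0.06, limma adjusted p = 0.020), a call lost without knockout replicate 1 (Etfa adjusted p = 0.051), knockout replicate 3 (0.082) or wild-type replicate 2 (0.060). Etfdh (0.11) and Etfb (-0.06) were not called. Etfb was listed at a signal of only 0.53 to 1.32 in all 15 libraries, where its partner subunit Etfa had 46.2 to 72.5. A second annotated gene, Etfbl, covers 99.7% of the length of Etfb and had 0 reads, and 57.7% of the 50-base stretches of Etfb occur in other genes, so its level is uncertain. Ppargc1a had a signal of 1.02 to 1.82 in knockout and 0.69 to 1.11 in wild-type libraries and was not called (log2 fold change 0.30, adjusted p = 0.15).

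**Figure D5:**
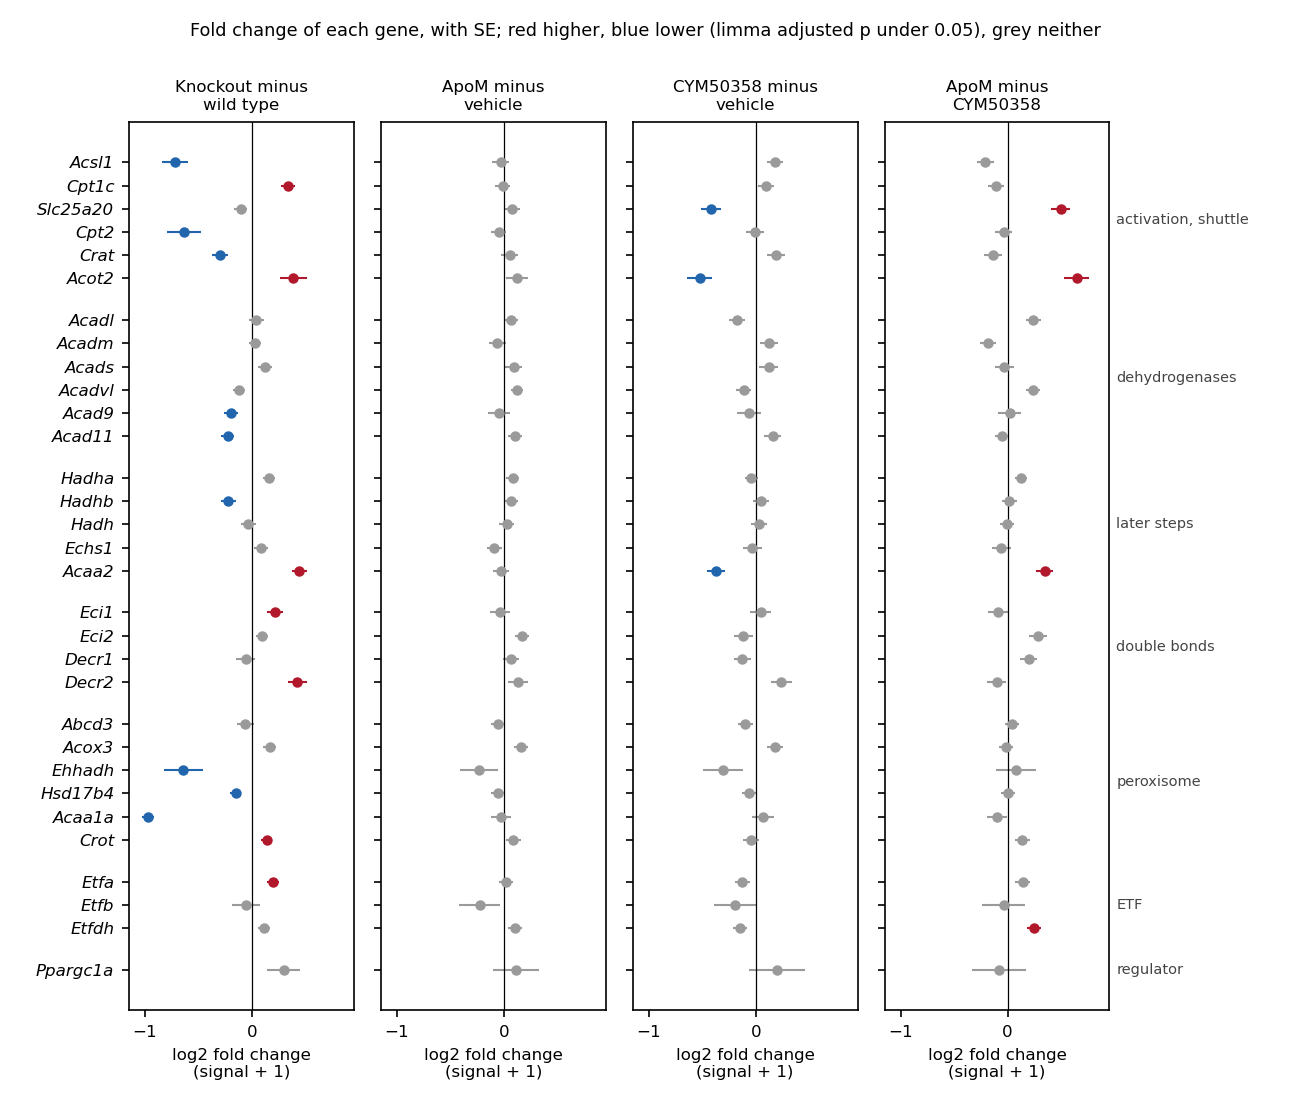
Log2 fold change of each member with its SE in the 4 comparisons, grouped by role, with red for called higher, blue for called lower and grey for not called (limma adjusted p under 0.05). The genotype column holds 7 red and 9 blue points, the ApoM column none, the CYM50358 column 3 blue points and the direct comparison 4 red points. The treatment columns share libraries.

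Other genes of the pathway changed in both directions between the genotypes. Of 31 tested other fatty acid oxidation genes, 3 rose and 11 fell. Cpt1a had a signal of 206.7, 175.0 and 176.6 in knockout libraries, against 104.7, 108.9 and 95.6 in wild-type libraries (log2 fold change 0.84, limma adjusted p = 3.6e-05), and Ech1, an isomerase of mitochondria and peroxisomes, rose too (0.57). Ucp2 fell furthest (23.6 ± 3.75 in knockout and 107.8 ± 6.99 in wild-type cells, log2 fold change -2.15), followed by Acsl4, a synthetase that favours arachidonate (-0.69).

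Of 22 tested regulators, 6 rose and 4 fell. The nuclear receptor Esrra (0.46) and the deacetylase Sirt1 (0.51) rose, while Prkaa2, a catalytic subunit of AMP kinase (-0.46), and Esrrg, a relative of Esrra (-0.95), fell and Ppard had a log2 fold change of 0.00 (adjusted p = 0.99). Among the ketone body genes Bdh1, which interconverts ketone bodies, fell (-1.52). Of 20 peroxisome genes, the membrane factor Pex3 (0.37), Pex11g (0.37) and catalase (Cat, 0.34) rose and the import receptor Pex5 fell (-0.29). Nuclear genes for mitochondrial mass numbered 5 higher and 6 lower of 23. The citrate synthase gene Cs (0.32), Vdac3 (0.36) and Timm44 (0.41) led the rises and Vdac1 (-0.33) the falls. Of 11 tested genes of mitochondrial DNA 1 was called higher (mt-Atp6, 0.49), at a low signal of 1.36 to 3.35 in knockout and wild-type libraries. All 11 had a log2 fold change above 0 (0.19 to 0.55). With the median of each chromosome subtracted, the calls of Sirt1, Pex3, Pex11g, Pex5, Cs, Vdac3, Timm44 and mt-Atp6 were lost.

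Several measures outside the pathway differed between the genotypes as well. All 10 cell division genes were lower, among them Tpx2 (-0.79), Cenpe (-0.96), Ccnb1 (-0.98), Mki67 (-0.92) and Bub1, with a summed signal of 140.7 to 151.7 in knockout and 201.4 to 299.2 in wild-type libraries. The 14 podocyte markers summed to 1102 to 1206 in knockout and 1404 to 1671 in wild-type libraries, with 3 of 10 tested higher, led by Lmx1b (2.33), and 6 lower, led by Wt1 (-2.64), Plce1 (-1.56) and Synpo (-0.62). Endothelial markers were lower for 3 of 3 tested (Erg -2.22, Flt1 -0.75 and Ehd3 -0.26; summed signal 40.6 to 45.8 in knockout and 54.3 to 65.0 in wild-type libraries). Of the proximal tubule markers 2 of 5 tested were lower (Aqp1 -0.74 and Slc5a12 -0.72; summed signal 280.8 to 393.1 in knockout and 380.2 to 428.8 in wild-type libraries). Other tubule and parietal markers had 1 higher (Cdh16, 1.49) and 1 lower (Pax2, -0.57) of 4 tested, and mesangial and fibroblast markers 2 higher (Col3a1, 4.24, and Col1a1, 4.22) and 3 lower of 10, with Cspg4 (-2.91) and Pdgfrb (-1.12) furthest down. Leukocyte markers were not called and adipocyte markers were under the filter in every group. Whole chromosomes also stood off from 0 in the median log2 fold change of their genes: by 0.28 for chromosomes 8 and 10 and by 0.17 for chromosome 5, which holds Hadha, Hadhb, Acads, Acox3, Crot and Ppargc1a, and by -0.16 for chromosome 4, which holds Cpt2 and Decr1. With these medians subtracted, 6 members were higher and 7 lower, without Crot, Eci1, Hsd17b4 and Acad9 of those named above and with Etfdh added to those higher (log2 fold change 0.20, limma adjusted p = 0.022). Their part in the results was otherwise not tested.

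The authors' deposited table called 12 of the 31 members between the genotypes, 5 higher and 7 lower, at an adjusted p under 0.05, beside 29.9% of the 21282 genes for which it gives an adjusted p. All 12 were among the 16 called here, in the same direction, and the other 4 were Crot, Eci1, Hsd17b4 and Acad9, with 0.078 to 0.15 in the authors' deposited table. Without knockout replicate 1 the number of members higher was 3, without knockout replicate 3 or wild-type replicate 2 it was 4, and the number lower was 4 without wild-type replicate 2 and 5 without wild-type replicate 3. The 7 members called with every library left out in turn were Acsl1, Cpt2, Crat, Cpt1c, Acaa1a, Acaa2 and Decr2.

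Promoter windows of 26 members were found in the RefSeq table (GRCm38.p6) and read on both strands for 6 motifs. Their median GC content was 60.5%, against 52.7% over 27025 promoters. A GC box (GGGCGG) was in 20 of the 26 (76.9%), against 35.9% of all promoters, and a CCAAT box (CCAAT) was in 11 (42.3%), against 37.9%. The core of the repeat bound by PPAR and RXR (AGGNCAAAG) was in the window of Etfa alone (3.85%), against 2.01% of all promoters, and the NRF1 motif (GCGCATGC) was in those of Acadm, Etfa and Etfdh (11.5%), against 2.80%. Neither the ERR element (TCAAGGTCA) nor the CRE (TGACGTCA) occurred in these windows, against 0.407% and 1.88% of all promoters. These are matches of letters within 300 bases.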

How the data were processed

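RNA of 15 libraries was measured with a Nugen Universal Plus mRNA-Seq kit, per the labels' protocols. The submitters' processing notes name edgeR, STAR, Trim Galore and FastQC, and mm39 as build. What each tool did, its version and whether counting used strand is not given in the sources used here, so overlapping genes are uncertain. The signal columns, 1 per library, were deposited by the authors without a named unit. The log2 fold changes with SE and the p-values with adjusted p-values were deposited by the authors too, per the file headers. No column of per-sample values was left unused (0).

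In each library 100% of values were whole multiples of 1 step (tolerance 0.02), which gave whole reads. On those reads edgeR called 6342, 6, 264 and 306 genes (in the order genotype, ApoM, CYM50358, ApoM against CYM50358) and DESeq2 called 6547, 19, 763 and 639.

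Because the columns hold signal, the test was limma 3.58.1 with a trend in R 4.3.3, on log2(signal + 1), over genes at a signal minimum of 0.5 in 3 libraries of the 2 groups compared. Adjustment was Benjamini-Hochberg over all genes tested. Alternatives were edgeR 4.0.16, DESeq2 1.42.0, pseudocounts of 0.5 and 0.1, no filter, a signal minimum of 2, TMM scaling, reads per library total, chromosome medians subtracted, 1 fit of the 9 treatment libraries, a replicate block and leaving out each library. The vehicle columns are the same in both treatment tables, so these were tested together. The genotype table was normalised separately.

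Members and lists were chosen with earlier results of these data known. The text names every member, up to 4 called genes per other list by smallest p, and Ppara, Ppard, Pparg and Cpt1a; some genes that the rule takes in are not reported here. Deviations of same-numbered libraries had r of 0.371, 0.217 and 0.105 between knockout and wild type. Between ApoM and CYM50358 they had r of 0.132, 0.115 and 0.132, with numbers from the sample titles. Differently numbered knockout and wild-type libraries had r of -0.298 to 0.197, so the replicate 3 pair (0.105) did not stand out from them. The main fits used no pairing, and the replicate block was an alternative fit only. Shared 50-base stretches come from GENCODE M21 transcripts. A protein table was not used here.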

Additional observations from a re-analysis of the deposited data

How the results depend on the processing

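With chromosome medians subtracted, Crot between the genotypes reversed to a log2 fold change of -0.032, since chromosome 5 as a whole stood higher. With no filter on low values 0 members were lower with CYM50358 than with vehicle and 0 were higher with ApoM than with CYM50358; the cause was not tested. With the replicate block, the pairing gave 7 members higher and 1 lower in ApoM minus CYM50358, and it moved no other count of members by over 1.5 times. Same-numbered libraries of ApoM and vehicle (r = 0.135, -0.122 and 0.0921) and of CYM50358 and vehicle (0.0938, -0.161 and -0.0305) did not deviate together. With 1 library left out, members higher in knockout cells numbered 3 to 6 and members lower 4 to 10, members lower with CYM50358 numbered 0 to 3, and members higher with ApoM than with CYM50358 numbered 2 to 7. No such fit called a member with ApoM against vehicle. By reads per library total, CYM50358 minus vehicle split into 232 genes higher and 123 lower, against 186 and 173 by signal. Over all alternatives that keep every library, called members kept direction and call in 206 results, lost the call in 23 and reversed in 1. With 1 library left out, the call was kept in 85 and lost in 53.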

Other observations

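The 2 sets of vehicle-treated knockout podocytes, normalised in separate tables and so compared as levels without a test, did not hold the members at the same level. Acsl1 had a signal of 43.2 to 48.3 in the set beside the treated cells and 74.9 to 97.8 in the set beside the wild-type cells (difference -0.86 on the log2(signal + 1) scale), and Cpt1c had 67.6 to 78.1 in the set beside the treated cells and 119.3 to 137.0 in the other (-0.80). Acaa2 (0.60), Decr1 (0.60) and Hadh (0.53) were higher in the set beside the treated cells. These 5 members differed by over 0.5, as did 16.3% of 13599 genes, and the median difference was 0.14 over the members, with 22 of 31 higher, and 0.00 over all genes. Other measures stood further apart between the sets. In the set beside the treated cells and in the set beside the wild-type cells, Mki67 averaged 4.47 ± 2.14 and 28.0 ± 2.19, Col1a1 averaged 48.6 ± 10.8 and 472.9 ± 95.3, and Col4a3 averaged 19.8 ± 4.12 and 68.3 ± 11.7 (SD, n = 3 each). Aqp1 had a signal of 12.3 to 17.2 in the set beside the treated cells and 50.2 to 79.5 in the other, and reads of mitochondrial DNA genes made up 2.60% to 3.18% and 1.30% to 2.02%.

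Of the 16 members called between the genotypes, 13 had the same sign when the set beside the treated cells was set against the wild-type libraries, which enter both differences. The sign was opposite for Cpt1c (-0.47, against 0.33 in the tested set), Crat (0.06, against -0.30) and Hsd17b4 (0.04, against -0.15). Acaa1a stayed low in both knockout sets (26.3 to 33.6 and 25.0 to 25.8, against 49.9 to 51.7 in wild-type libraries). These levels were looked at after the values were seen.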
